A study of Mus musculus with 9 samples.

Results

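The 35 genes described here encode the proteins that copy DNA, and were taken by their symbols from the 32594 genes of a count table of mouse hindlimb skeletal muscle. All 35 were present in the table, and all 35 had enough counts to be tested. They comprise the replicative helicase (Mcm2 to Mcm7), the licensing factors that load it and their inhibitor (Orc1, Orc6, Cdc6, Cdt1, Gmnn), and the factors that activate it (Mcm10, Cdc45, Gins1, Gins2, Gins3). The sliding clamp and its loader (Pcna, Rfc3, Rfc4, Rfc5), the polymerases and primase (Pola1, Prim1, Pole, Pole2, Pold1) and the enzymes that finish the lagging strand (Fen1, Lig1) follow. Nucleotide supply (Rrm1, Rrm2, Tyms, Tk1, Dut) and the handling of chromatin behind the fork (Chaf1a, Chaf1b, Uhrf1) complete the list.

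A cell licenses its replication origins before S phase by loading MCM helicases onto DNA, and fires them in S phase, when the helicase is joined by Cdc45 and the GINS complex. Many genes of this machinery are targets of the E2F transcription factors and are transcribed as a cell commits to division. The nuclei of mature muscle fibres do not divide, so replication in muscle is the work of the mononucleated cells, such as satellite cells, fibroblasts, endothelial cells and macrophages.

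The libraries were 5 from wild type (WT) mice and 4 from mice carrying the SMN delta 7 genotype (SMA). The genotype is a model of spinal muscular atrophy, and all mice were on the FVB/N background. Spinal muscular atrophy is a motor neuron disease caused by too little SMN protein. The labels name the mutant line without listing its alleles and state no age, sex or litter, and they do not say whether each library is a separate animal, so p-values measure the spread between these libraries only. Polyadenylated RNA was sequenced from whole hindlimb muscle. In such bulk tissue, fewer cells of a type and less RNA per cell cannot be told apart.

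Library totals ranged from 24917665 to 34094645 counts in WT and from 30746646 to 35087722 in SMA. The 35 genes together held 7365 to 11859 counts in a library, and a single one held 12 to 1073. Values below are in CPM (counts-per-million of the TMM-scaled library size), listed in replicate order. Fold changes are SMA relative to WT on the log2 scale with their SE, and adjusted p-values come from edgeR's quasi-likelihood test, adjusted by Benjamini-Hochberg over 15873 genes. Smn1, the gene reduced in this model, measured 13.1, 13.5, 13.8, 11.1 and 13.3 CPM in WT and 1.80, 2.24, 1.40 and 2.72 CPM in SMA. Its fall of -2.66 ± 0.17 (SE; adjusted p = 2.9e-07) matched the group labels in all 9 libraries. The 8 muscle fibre markers summed to 153356 to 215414 CPM in WT and 85404 to 104307 CPM in SMA, so fibre RNA was abundant in both groups, though lower in SMA. Of these markers, 6 were lower in SMA and 2 did not pass the test, beside 27.2% lower among all genes tested.

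Of the 35 replication genes, 29 were lower in SMA, 3 were higher (Orc6, Gins1 and Pole) and 3 did not pass the test (Mcm7, Rfc3 and Chaf1a). Among all genes tested, 27.2% were lower, 27.7% were higher and 45.1% did not pass. The median log2 fold change of the 35 genes was -0.96, against 0.0060 over all genes. A fall of 2-fold or more was seen for 13 of the 35, where 6.28% of all genes fell that far. In 27 of the 35 every SMA library was below every WT library, a pattern found in 21.7% of all genes, and in 3 every SMA library was above every WT library, as in 22.6% of all genes. The groups overlapped for Mcm7, Rfc3, Pold1, Dut and Chaf1a. Summed over the 35 genes, the level was 356 ± 29.7 CPM (SD, n = 5) in WT and 219 ± 8.80 CPM (SD, n = 4) in SMA.

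**Figure D1:**
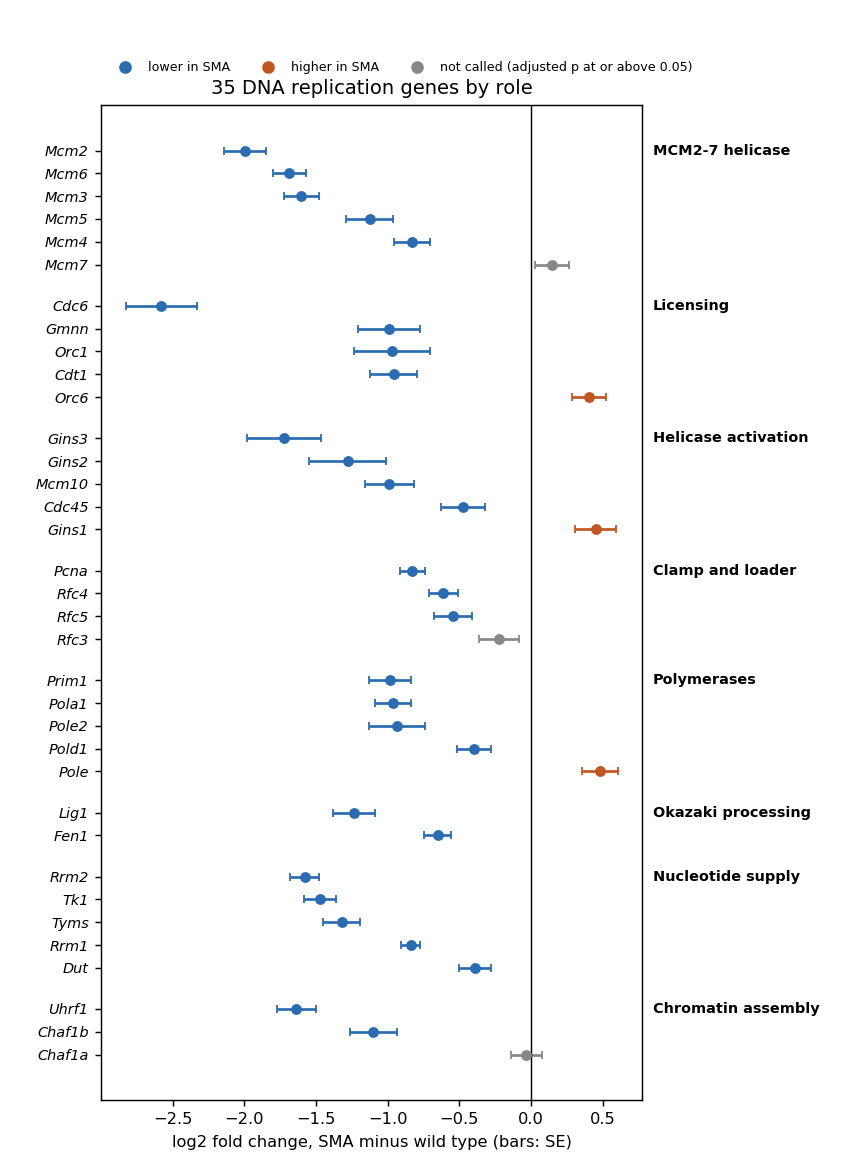
Log2 fold change (SMA relative to WT, horizontal axis) of the 35 replication genes ordered by role, with bars of 1 SE. Points left of 0 are lower in SMA: 29 passed the test there, while Orc6, Gins1 and Pole passed to the right of 0.

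**Figure D2:**
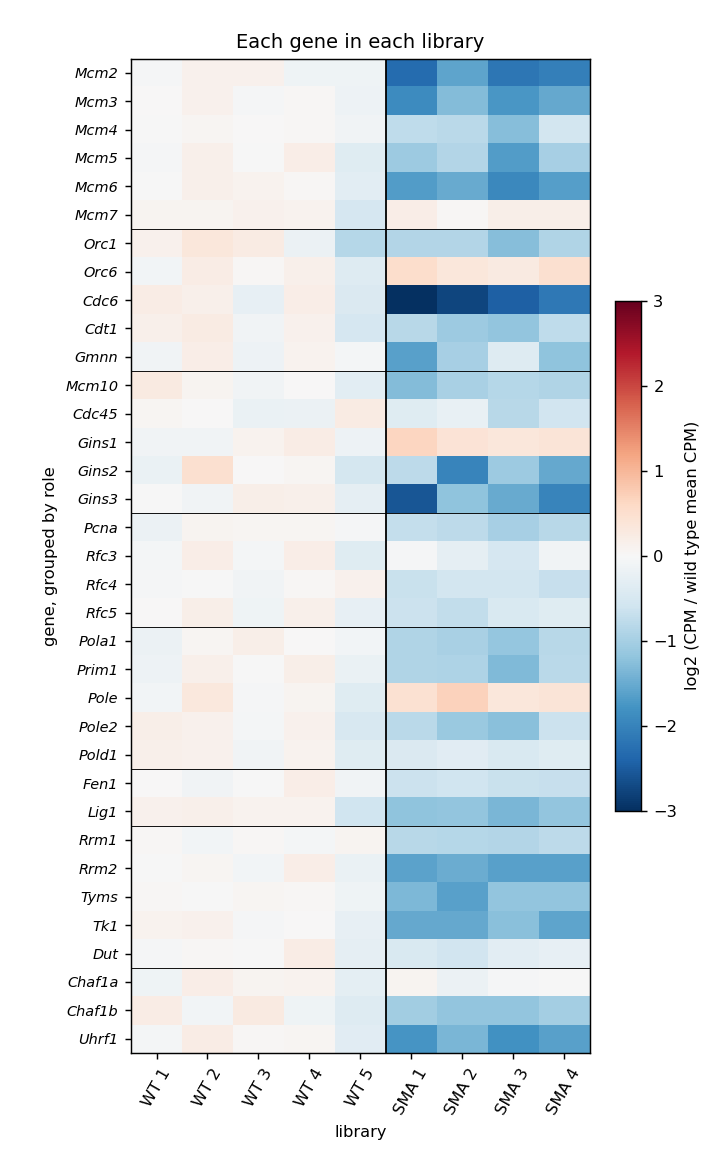
Level of each replication gene in each of the 9 libraries, as the log2 ratio of its CPM to the WT mean. The 4 SMA columns are below the WT mean for most rows, and the rows of Orc6, Gins1 and Pole show the opposite direction.

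Promoter sequence was read next, since many replication genes are known E2F targets. Of the 35, 30 had an entry in the RefSeq promoter table for GRCm38.p6 (250 bases before to 50 after the start site), and Gins1, Gins2, Gmnn, Mcm4 and Pole had none. The windows were searched on both strands for the E2F-type letters TTTCCCGC, TTTGGCGC, TTTCGCGC and TTTGCCGC, some of whose matches overlap. A match was found in 14 of 30 replication genes (46.7%) and in 704 of 27025 genes in the table (2.60%). The 27025 genes were not limited to those tested here, so these shares are not matched for expression. Of the 26 that were lower in SMA and had an entry, 12 held a match, and so did 2 of the 4 others, Mcm7 and Rfc3. A match is a run of letters, not evidence of binding. The reference is the C57BL/6J genome, whereas the libraries are FVB/N.

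The 250 bases before the start sites of Mcm5, Mcm6 and Pola1 are shown because their matches lie upstream of transcribed sequence, and capitals mark the matching letters.
Mcm5 promoter, chr8:75109259-75109508, plus strand: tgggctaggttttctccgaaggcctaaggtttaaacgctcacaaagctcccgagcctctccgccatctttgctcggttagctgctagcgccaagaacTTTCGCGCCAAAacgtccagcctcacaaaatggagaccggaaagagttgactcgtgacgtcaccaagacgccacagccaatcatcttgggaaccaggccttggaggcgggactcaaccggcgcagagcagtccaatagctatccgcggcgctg
Mcm6 promoter, chr1:128359706-128359955, minus strand: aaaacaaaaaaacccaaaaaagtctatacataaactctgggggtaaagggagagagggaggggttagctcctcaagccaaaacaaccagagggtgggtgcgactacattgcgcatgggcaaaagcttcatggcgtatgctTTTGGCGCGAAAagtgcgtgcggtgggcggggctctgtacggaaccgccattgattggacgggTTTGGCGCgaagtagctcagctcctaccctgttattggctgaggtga
Pola1 promoter, chrX:93632156-93632405, minus strand: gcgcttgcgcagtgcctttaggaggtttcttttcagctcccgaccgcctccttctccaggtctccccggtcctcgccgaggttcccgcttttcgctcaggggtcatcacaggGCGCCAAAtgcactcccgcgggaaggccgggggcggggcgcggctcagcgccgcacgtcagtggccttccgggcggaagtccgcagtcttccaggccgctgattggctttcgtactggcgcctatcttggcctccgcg

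The shorter stretches below carry the matches of 4 genes that fell (Cdc6, Gins3, Mcm3 and Uhrf1) and of the 2 genes with a match that did not pass the test (Mcm7 and Rfc3), again with the letters in capitals.
Cdc6, chr11:98908005-98908028, plus strand: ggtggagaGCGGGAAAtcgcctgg
Gins3, chr8:95633510-95633533, plus strand: agtgcggcGCGGGAAAgcgagttt
Mcm3, chr1:20820278-20820301, minus strand: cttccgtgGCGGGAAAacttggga
Mcm3, chr1:20820263-20820282, minus strand: tgggaagtTTTGGCGCcaag
Uhrf1, chr17:56304120-56304143, plus strand: gagtcgggTTTCGCGCgcccaggc
Mcm7, chr5:138172033-138172056, minus strand: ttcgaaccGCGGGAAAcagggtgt
Mcm7, chr5:138171852-138171875, minus strand: tgacgacgTTTCGCGCcaatttcg
Rfc3, chr5:151651195-151651224, minus strand: gcacgcTTTCGCGCtcGCGGGAAAactcta
The letters were thus found in windows of genes that fell by different amounts and of genes that did not pass the test.

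The helicase genes separated into 5 that fell and 1, Mcm7, that did not pass. Mcm2 to Mcm7 are paralogous ATPases that assemble as a ring with 1 copy of each. Mcm2 measured 17.3, 19.3, 19.2, 16.1 and 16 CPM in WT and 3.52, 5.91, 3.89 and 4.27 CPM in SMA, a log2 fold change of -2.0 ± 0.15 (adjusted p = 7.6e-07). All 4 SMA libraries lay far below the WT range. Mcm6 measured 18.9, 21.0, 20.3, 19.4 and 15.3 CPM in WT and 5.90, 6.60, 5.0 and 6.06 CPM in SMA (-1.69 ± 0.12, adjusted p = 5.0e-07). Mcm3 fell by 1.60 ± 0.12 on the log2 scale, from 14.8 ± 1.03 to 4.85 ± 0.869 CPM. The remaining subunits that changed fell less far: Mcm5 from 15.1 ± 2.16 to 6.89 ± 1.54 CPM (-1.13 ± 0.16) and Mcm4 from 13.4 ± 0.609 to 7.54 ± 1.48 CPM (-0.83 ± 0.13).

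Mcm7 measured 20.8, 20.7, 21.3, 21.1 and 13.8 CPM in WT and 22.3, 20.0, 22.1 and 22.0 CPM in SMA. Its difference of 0.14 ± 0.12 did not pass the test (adjusted p = 0.328). The groups overlapped. WT 5 was the lowest of the 9 libraries, and without it the difference was 0.039 (adjusted p = 0.652). Mcm7 lies at chr5:138164583-138172422 on the minus strand (GENCODE M21, GRCm38). A processed pseudogene, Gm5487, matches its transcript at 97.7% identity over 2157 bases and is absent from the count table, so its reads could have been counted as Mcm7 or discarded. Of the 35 genes, 7 have such near-identical stretches elsewhere. The others are Cdc6, Pcna, Rfc5, Rrm2, Tyms and Uhrf1. Mcm7 also shares 321 exonic bases with Ap4m1 and 64 with Cops6, both on the opposite strand. The strand setting of the counting is not given, so reads of these genes cannot be told apart with certainty.

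Per kilobase of the longest coding transcript, the WT subunits ranged from 3.73 ± 0.170 CPM per kb for Mcm4 to 6.60 ± 1.08 for Mcm7. In the WT libraries Mcm7 stood at 7.02, 7.00, 7.19, 7.12 and 4.67 CPM per kb. The highest WT value of any other subunit was 5.72 (Mcm2), so Mcm7 was above the others in every WT library but WT 5. In SMA, Mcm7 stood at 7.28 ± 0.364 CPM per kb and the other subunits between 1.30 ± 0.313 (Mcm2) and 2.10 ± 0.411 (Mcm4). The order among Mcm2, Mcm3, Mcm5 and Mcm6 in WT and among Mcm2, Mcm3 and Mcm6 in SMA had steps no larger than the spread between libraries.

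**Figure D3:**
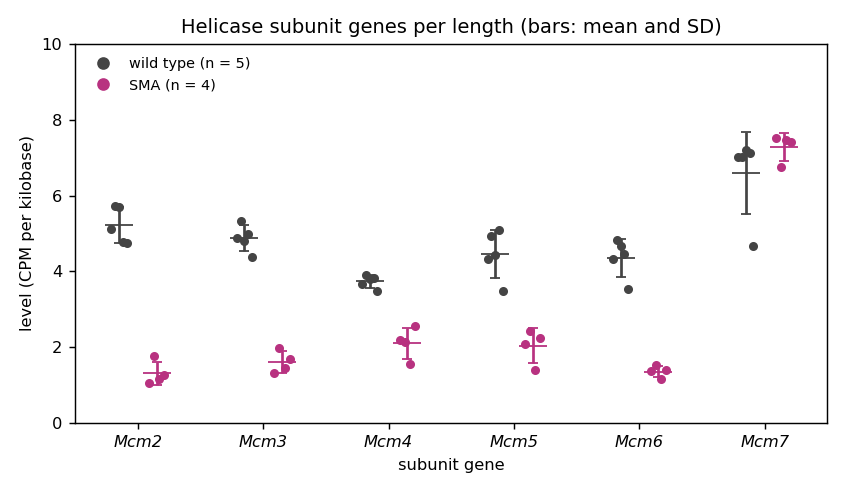
Level of the 6 helicase subunits in CPM per kilobase of the longest coding transcript, 1 point per library, with bars for the mean and SD. In WT the means run from 3.73 (Mcm4) to 6.60 (Mcm7), with Mcm7 highest in every library but WT 5. In SMA Mcm7 (mean 7.28) is further apart from the other 5 (means 1.30 to 2.10).

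Ratios of counts within a complex need no library scaling. They were chosen after the values were seen and are given as a description, without a test. Mcm7 reads divided by the reads of the other 5 subunits were 0.264, 0.238, 0.258, 0.258 and 0.201 in WT and 0.786, 0.582, 0.939 and 0.684 in SMA. The ratio was thus higher in every SMA library than in any WT library. The same ratio for Mcm2 moved from 0.216 ± 0.0202 to 0.0939 ± 0.0203, and that for Mcm6 from 0.236 ± 0.00615 to 0.130 ± 0.00674, without overlap. For Mcm4 (0.157 ± 0.0115 and 0.172 ± 0.0276) and Mcm5 (0.178 ± 0.0147 and 0.155 ± 0.0277) the groups overlapped. These ratios share reads and are not separate observations.

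Among the licensing genes, 4 fell and Orc6 rose. Cdc6, the ATPase that joins the origin recognition complex (ORC) to load MCM, had the largest fall of the 35 genes, from 3.74, 3.55, 2.71, 3.70 and 2.37 CPM in WT to 0.344, 0.479, 0.587 and 0.730 CPM in SMA. Its log2 fold change was -2.58 ± 0.25 (adjusted p = 5.5e-06), resting on 67 to 110 counts per WT library and 12 to 26 per SMA library. Cdt1, which delivers the helicase, fell from 6.76 ± 1.29 to 3.47 ± 0.486 CPM (-0.96 ± 0.16), and Gmnn, its inhibitor geminin, fell from 3.90 ± 0.400 to 1.96 ± 0.724 CPM (-0.99 ± 0.22). The ratio of Cdt1 to Gmnn counts overlapped between groups (1.73 ± 0.280 in WT, 2.00 ± 0.870 in SMA).

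Orc1, the ORC subunit whose level cycles in dividing cells, fell from 1.21 ± 0.349 to 0.618 ± 0.0771 CPM (-0.97 ± 0.27, adjusted p = 0.00843). WT 5, at 0.673 CPM, was barely above the highest SMA library, at 0.666 CPM. Orc6, the smallest and most loosely held ORC subunit, measured 12.6, 15.4, 13.6, 14.7 and 10.1 CPM in WT and 19.2, 16.7, 15.9 and 18.6 CPM in SMA. Every SMA library was above every WT library, and the rise was 0.40 ± 0.12 (adjusted p = 0.0122). With a term for sex, read from Y-linked counts that were present in 4 of 5 WT and 1 of 4 SMA libraries, the Orc6 estimate was 0.37 and no longer passed (adjusted p = 0.0683).

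The partner subunits of ORC did not share 1 direction. Orc5 rose by 0.47 ± 0.088 and Orc2 by 0.25 ± 0.079, Orc4 fell by 0.29 ± 0.10, and Orc3 did not pass (-0.20 ± 0.093, adjusted p = 0.0904). Orc2 lost its call in 5 of the alternative fits, among them those without WT 2, WT 4 or SMA 1. Orc4 lost its call in 8, among them those without WT 4, WT 5, SMA 1, SMA 2 or SMA 4. Orc6 to Orc1 count ratios were 9.57, 9.94, 9.39, 13.6 and 15.1 in WT and 29.1, 25.1, 31.6 and 28.8 in SMA.

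GINS, the complex that joins Cdc45 on the helicase, held subunits that fell and 1 that rose. Gins3 fell from 2.20, 2.06, 2.52, 2.48 and 1.84 CPM in WT to 0.372, 0.959, 0.783 and 0.561 CPM in SMA (-1.72 ± 0.26, adjusted p = 1.6e-04). Gins2 fell from 2.51 ± 0.644 to 1.04 ± 0.358 CPM (-1.28 ± 0.27). Gins1 measured 2.15, 2.13, 2.48, 2.69 and 2.06 CPM in WT and 3.58, 3.06, 2.91 and 3.03 CPM in SMA, above WT in every library (0.45 ± 0.15, adjusted p = 0.0201). The Gins1 rise is the weakest call of the 3: without SMA 1 its adjusted p was 0.0697 and with the term for sex 0.101. Gins4, the remaining subunit, did not pass (-0.19 ± 0.077, adjusted p = 0.0602), though it did without WT 2 (adjusted p = 0.0413).

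In WT the Gins1 to Gins3 count ratio lay between 0.980 and 1.12, so these subunits had nearly equal counts in every library. In SMA the ratio was 9.62, 3.19, 3.71 and 5.40. The Gins1 to Gins2 ratio likewise moved from 0.957 ± 0.210 to 3.30 ± 1.10 without overlap, whereas the ratio of Gins2 to Gins3 overlapped. Gins2 and Gse1 share 2758 exonic bases on opposite strands, and Gse1 rose by 0.54 ± 0.12. The strand setting of the counting is not given in the sources used here, so reads of such opposite-strand partners cannot be told apart with certainty.

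Of the other activation factors, Mcm10, which helps the helicase to start, fell from 3.37 ± 0.516 to 1.69 ± 0.221 CPM (-0.99 ± 0.17). Cdc45 fell from 5.2 ± 0.668 to 3.74 ± 0.665 CPM (-0.47 ± 0.15, adjusted p = 0.0182). This call was among the least stable of the falls: it was lost under total-count scaling (-0.24, adjusted p = 0.188), with the term for sex (-0.32, adjusted p = 0.150) and without WT 5 and SMA 3 (-0.31, adjusted p = 0.0651).

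Pcna, the sliding clamp that tethers the polymerases, had the highest level per kilobase of the 35 genes in WT, 14.5 ± 1.08 CPM per kb. It measured 19.3, 23.2, 23.0, 22.9 and 21.4 CPM in WT and 13.5, 12.6, 11.1 and 12.3 CPM in SMA (-0.83 ± 0.087, adjusted p = 1.1e-05). In SMA the highest level per kilobase was that of Orc6, at 12 ± 1.05 CPM per kb, with Pcna at 8.16 ± 0.660. In WT Orc6 stood at 9.07 ± 1.40 CPM per kb, not apart from Rrm1 at 9.02 ± 0.414. The clamp loader subunits Rfc4 (6.56 ± 0.403 to 4.29 ± 0.230 CPM, -0.61 ± 0.10) and Rfc5 (5.72 ± 0.689 to 3.93 ± 0.468 CPM, -0.54 ± 0.13) both fell, and the Rfc5 call was lost under total-count scaling (-0.31, adjusted p = 0.143). On the opposite strand, Rfc4 shares 194 exonic bases with Eif4a2 (369 CPM in WT, 334 CPM in SMA). Rfc5 shares 499 with Wsb2, which fell by 0.23 ± 0.079, so the same limit applies as for Gins2. Rfc3 overlapped between groups at 6.89 ± 1.06 and 5.91 ± 0.80 CPM (-0.22 ± 0.14, adjusted p = 0.196). Rfc2 fell by 0.37 ± 0.10, a call lost under total-count scaling (adjusted p = 0.405), and Rfc1, the large subunit, did not pass (-0.05 ± 0.066).

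All 4 subunits of the polymerase alpha and primase complex fell. Pola1, the catalytic subunit of polymerase alpha, fell from 5.14 ± 0.446 to 2.63 ± 0.247 CPM (-0.96 ± 0.13), and Prim1, the catalytic primase subunit, from 5.25 ± 0.622 to 2.66 ± 0.385 CPM (-0.98 ± 0.15). Their partners Pola2 (-0.92 ± 0.070) and Prim2 (-0.88 ± 0.18) fell by nearly the same amount. The Pola1 to Prim1 count ratio was 0.985 ± 0.100 in WT and 0.999 ± 0.0634 in SMA.

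Polymerase epsilon, the leading-strand enzyme, had subunits that moved in opposite directions. Its catalytic subunit Pole measured 12.2, 15.9, 12.5, 13.7 and 9.92 CPM in WT and 17.7, 20.6, 16.3 and 16.9 CPM in SMA, a rise of 0.48 ± 0.13 (adjusted p = 0.00668). Its second subunit Pole2 measured 2.99, 2.94, 2.55, 2.94 and 1.91 CPM in WT and 1.52, 1.22, 1.12 and 1.71 CPM in SMA, a fall of 0.93 ± 0.20 on the log2 scale (adjusted p = 0.00177). Neither gene overlapped between groups. The Pole to Pole2 count ratio was 4.85 ± 0.511 in WT and 13.2 ± 3.08 in SMA. Of the small subunits, Pole4 fell (-0.62 ± 0.091) and Pole3 did not pass (-0.26 ± 0.14, adjusted p = 0.127).

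Pold1, the catalytic subunit of the lagging-strand polymerase delta, fell by 0.40 ± 0.12 on the log2 scale (adjusted p = 0.0118), from 10.8 ± 1.61 to 8.22 ± 0.311 CPM, with overlapping groups, WT 5 standing at 8.36 CPM. This call was lost under total-count scaling (-0.17, adjusted p = 0.357) and with the term for sex (-0.34, adjusted p = 0.0777). Its partners Pold2 (0.01 ± 0.074, adjusted p = 0.927) and Pold3 (-0.05 ± 0.082, adjusted p = 0.651) did not pass, and Pold4 rose by 0.38 ± 0.10 with overlapping groups. Under total-count scaling Pold2 passed as higher (0.24, adjusted p = 0.0268).

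Both enzymes of Okazaki fragment maturation fell. Lig1, the ligase that seals the fragments, measured 14.2, 14.4, 14.1, 14.0 and 8.61 CPM in WT and 5.64, 5.72, 5.09 and 5.73 CPM in SMA (-1.24 ± 0.15, adjusted p = 2.9e-05). Fen1, the flap endonuclease, fell from 10.8 ± 0.986 to 6.90 ± 0.198 CPM (-0.65 ± 0.093).

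All 5 genes of nucleotide supply fell. Rrm2, the S phase subunit of ribonucleotide reductase, measured 11.9, 12.5, 11.4, 13.7 and 10.4 CPM in WT and 3.95, 4.29, 3.89 and 3.90 CPM in SMA (-1.58 ± 0.10), with the lowest adjusted p of the 35 genes (3.5e-07). Rrm1, the large subunit, fell from 36.0 ± 1.66 to 20.2 ± 0.558 CPM (-0.84 ± 0.066). The Rrm2 to Rrm1 count ratio moved from 0.334 ± 0.0476 to 0.199 ± 0.0114 without overlap. Rrm2b, the alternative small subunit, fell by 0.57 ± 0.12.

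Tk1, the thymidine kinase of dividing cells, fell from 11.4 ± 1.12 to 4.10 ± 0.436 CPM (-1.47 ± 0.11), and Tyms, which makes thymidylate, from 6.22 ± 0.316 to 2.49 ± 0.342 CPM (-1.32 ± 0.13). Dut, which removes dUTP, had the smallest fall of the 29 genes, from 14.8 ± 1.82 to 11.3 ± 1.2 CPM (-0.39 ± 0.11, adjusted p = 0.00951). Its groups overlapped, and the call was lost under total-count scaling (-0.16, adjusted p = 0.368).

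Chromatin assembly factor 1, which deposits histones on new DNA, had 1 subunit that fell and 1 that did not pass. Chaf1a, its large subunit, measured 12.2, 15.3, 14.1, 14.5 and 11 CPM in WT and 14.1, 11.8, 13.1 and 13.4 CPM in SMA, with overlap and no difference that passed (-0.03 ± 0.11, adjusted p = 0.808). Chaf1b measured 5.01, 4.0, 5.18, 3.88 and 3.26 CPM in WT and 2.06, 1.89, 1.87 and 2.11 CPM in SMA (-1.10 ± 0.16, adjusted p = 1.5e-04). The Chaf1a to Chaf1b count ratio was 3.22 ± 0.618 in WT and 6.62 ± 0.351 in SMA, without overlap. Chaf1a shares 4648 exonic bases with Ubxn6 on the opposite strand, and Ubxn6 rose by 0.33 ± 0.11, a call lost without SMA 1 or SMA 2 (adjusted p = 0.0550 and 0.0721), so the same limit applies as for Gins2. Uhrf1, which brings the maintenance methyltransferase to newly copied DNA, measured 12.8, 15.5, 13.7, 13.8 and 10.5 CPM in WT and 3.86, 5.17, 3.75 and 4.27 CPM in SMA (-1.64 ± 0.14, adjusted p = 1.9e-06).

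**Figure D4:**
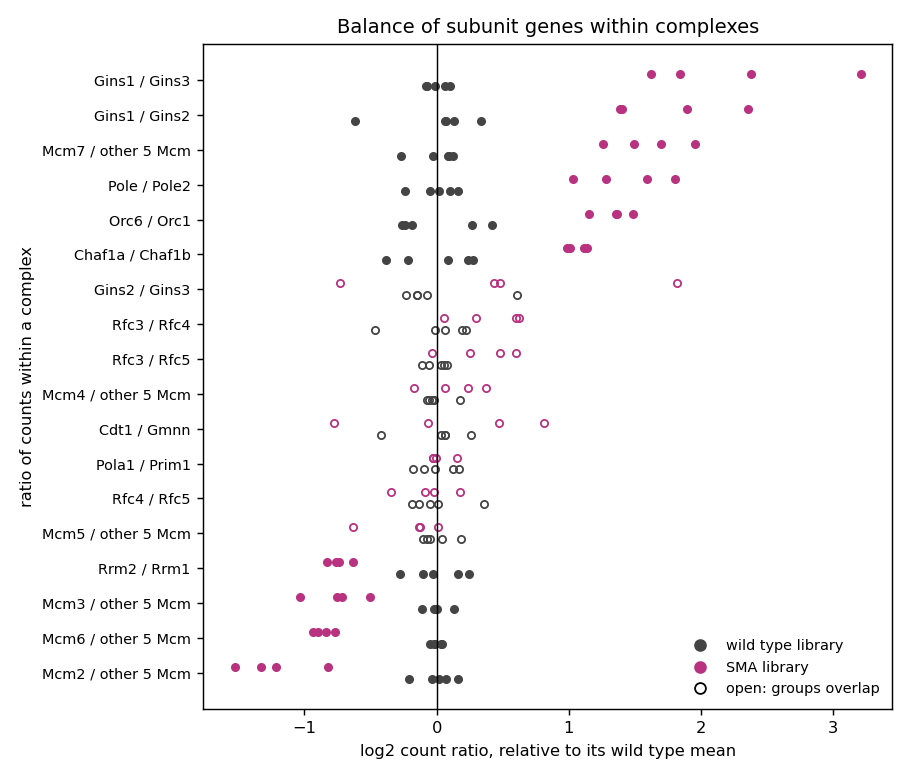
Log2 ratio of counts between genes of the same complex, relative to the WT mean of that ratio (horizontal axis), with 1 point per library and open points where the groups overlap. The Mcm7, Orc6/Orc1, Gins1/Gins3, Pole/Pole2 and Chaf1a/Chaf1b ratios are higher in every SMA library, and Rrm2/Rrm1 is lower in every SMA library.

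Several of these genes start close to a gene on the opposite strand. Within 1000 bases, 14 replication genes had such a neighbour, and 8 of the neighbours were in the count table. Ap4m1, which encodes an adaptor subunit of vesicle transport and starts 420 bases from Mcm7 at a position within its transcribed region, measured 7.56, 9.23, 8.88, 8.98 and 7.83 CPM in WT and 26.8, 24.3, 16.8 and 22.5 CPM in SMA. It rose by 1.41 ± 0.13, and it shares 321 exonic bases with Mcm7, so the same limit applies as for Gins2. Pxmp2, a peroxisomal membrane protein gene 120 bases from Pole, rose by 0.69 ± 0.19 (adjusted p = 0.00859), with 1 SMA library at 65.2 CPM and the other 3 at 32.0 to 34.1 CPM. Without that library, SMA 3, the rise was 0.38 (adjusted p = 0.00326), and with the term for sex the call was lost (adjusted p = 0.0587).

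The neighbours of the other genes that rose did not pass the test: Vps35, a retromer subunit 170 bases from Orc6, was at -0.02 ± 0.12, and Abhd12, a lipase 659 bases from Gins1, was at 0.02 ± 0.074. Prkdc, the DNA-dependent protein kinase gene 466 bases from Mcm4, fell by 0.72 ± 0.10, and Tmem258, 155 bases from Fen1, fell by 0.59 ± 0.10. Afmid, 168 bases from Tk1, rose by 0.35 ± 0.090 while Tk1 fell, and Prpf38a, 87 bases from Orc1, did not pass (0.14 ± 0.067, adjusted p = 0.100). Abhd12 and Prpf38a did pass as higher under total-count scaling (0.25 and 0.37, adjusted p = 0.0192 and 0.00463). Vps35 shares 171 exonic bases with Orc6, Tmem258 130 with Fen1 and Afmid 83 with Tk1, so the same limit applies as for Gins2. Cdc45, Lig1, Fen1, Orc1 and Pole also overlap exons of opposite-strand genes that are absent from the count table. The neighbours shared no 1 direction with their replication genes.

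A wider list of 71 other replication genes, all tested, held 34 that fell (47.9%), 9 that rose (12.7%) and 28 that did not pass. Their median log2 fold change was -0.26. Beside these counts, 27.2% of all genes tested were lower and 27.7% were higher. Among 14 licensing and origin regulators, 6 fell (42.9%) and 4 rose (28.6%, near the share of all genes). The cyclins Ccna2 (-1.91 ± 0.12) and Ccne1 (-1.87 ± 0.18), which drive S phase, fell, and Fzr1, an activator of the anaphase-promoting complex, rose by 0.27 ± 0.075. Of 10 firing and fork factors, 6 fell, and those with the lowest adjusted p were Clspn, the checkpoint mediator claspin (-2.25 ± 0.16), and Tipin, a fork protection factor (-0.90 ± 0.11). Mtbp was the 1 that rose (0.31 ± 0.12, adjusted p = 0.0499), and it did not pass in 13 of the alternative fits, including those without WT 1, WT 2, WT 3, WT 5, SMA 1 or SMA 2.

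Of 23 further polymerase, clamp and processing genes, 13 fell and 1 rose, and the largest fall was that of Top2a, the topoisomerase that untangles copied chromosomes (-2.50 ± 0.13). Among 12 nucleotide supply genes, 5 fell and 2 rose. The kinase genes Nme1 (-0.90 ± 0.14) and Dck (-0.73 ± 0.11) fell. Tk2, the mitochondrial thymidine kinase, rose by 0.52 ± 0.11, in the opposite direction to Tk1, and the folate enzyme gene Shmt1 rose by 0.50 ± 0.10. Of 12 chromatin genes, 4 fell (33.3%, beside 27.2% of all genes) and 1 rose. Hells, a chromatin remodeller, fell by 1.28 ± 0.15, and Dnmt1, the methyltransferase partnered with Uhrf1, by 0.77 ± 0.095. Hat1, the histone acetyltransferase, rose by 0.24 ± 0.093 (adjusted p = 0.0462), a call lost in 10 of the alternative fits, including those without WT 1, WT 2, WT 3, WT 4, SMA 1 or SMA 4.

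Genes that control entry to S phase and those of mitosis were read beside them. Of 29 tested cell cycle control genes, 16 fell (55.2%) and 7 rose (24.1%), beside 27.2% and 27.7% of all genes. Of 8 E2F genes, 5 fell: E2f1 (-1.26 ± 0.13), E2f2 (-2.44 ± 0.16), E2f3 (-0.51 ± 0.10), E2f6 (-0.47 ± 0.092) and E2f7 (-1.43 ± 0.17). The 2 that did not pass were E2f4 and E2f5. E2f8 rose by 0.69 ± 0.25 (adjusted p = 0.0311). That call was lost in 7 of the alternative fits, among them those without WT 1, WT 5, SMA 2 or SMA 3. The pocket protein genes, whose products restrain E2F, did not share 1 direction: Rbl1 fell by 1.21 ± 0.11 on the log2 scale, whereas Rbl2 rose by 1.05 ± 0.13 and Rb1 by 0.36 ± 0.089. Cdkn1a, which encodes the cyclin-dependent kinase inhibitor p21 that also binds Pcna, measured 38.2, 39.1, 41.7, 38.0 and 36.4 CPM in WT and 849, 663, 454 and 721 CPM in SMA (4.12 ± 0.16). The other inhibitor genes of the list did not share 1 direction. Cdkn1c fell from 460 ± 43.3 to 225 ± 27.4 CPM (-1.04 ± 0.11), and Cdkn2c fell (-1.11 ± 0.14). Cdkn1b rose (0.32 ± 0.066), Cdkn2d did not pass (-0.06 ± 0.083), and Cdkn2a and Cdkn2b were below the filter. Tfdp2, a dimer partner of E2F, rose by 1.78 ± 0.10. All 16 mitotic genes fell, with a median of -1.83 and examples in the spindle kinase Aurka (-1.95 ± 0.11) and its activator Tpx2 (-1.85 ± 0.12). Their summed level went from 184 ± 19.9 to 55.8 ± 5.36 CPM, a larger ratio (3.30) than that of the 35 replication genes (1.63). The difference between these ratios was not tested.

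**Figure D5:**
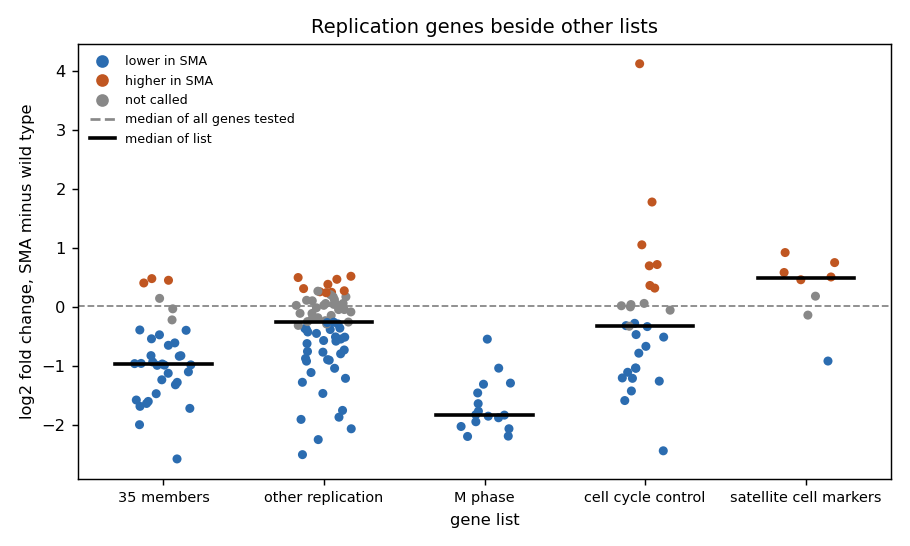
Log2 fold changes of single genes (vertical axis, SMA relative to WT) in the replication, mitotic (M phase), cell cycle control and satellite cell marker lists, with bars at list medians and a dashed line at the median of all genes. The mitotic list lies wholly below 0 (median -1.83), the 35 replication genes have a median of -0.96, and the 71 other replication genes have a median of -0.26.

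Markers of the cell types of muscle did not move as 1 group. The marker counts below stand beside 27.2% lower and 27.7% higher among all genes tested. Of 8 satellite cell markers, 5 rose, 1 fell and 2 did not pass, and their sum was 132 to 149 CPM in WT and 173 to 183 CPM in SMA. Most of the difference in that sum came from Sdc4, a syndecan gene that other cells also express, at 39.5 ± 3.18 CPM in WT and 74.7 ± 6.12 CPM in SMA. Pax7, Myf5 and Calcr also rose, from 5.0 to 6.0 CPM each in WT to 7.1 to 8.5 CPM each in SMA. Chrdl2 rose with overlapping groups (0.75 ± 0.19). Vcam1 fell without overlap (-0.92 ± 0.11, adjusted p = 3.8e-05), and Cdh15 (0.18 ± 0.094) and Myod1 (-0.14 ± 0.13) did not pass. The Pax7 call (adjusted p = 0.0386) was lost in 9 of the alternative fits, among them those without WT 1, WT 4, WT 5, SMA 1, SMA 2 or SMA 4, and the Myf5 and Calcr calls were lost with the term for sex (adjusted p = 0.0503 and 0.0620). Of 7 fibroblast markers, 5 fell and 1 rose, with sums of 3110 to 5536 CPM in WT and 1838 to 2710 CPM in SMA. Of 6 macrophage markers 4 fell, with sums of 113 to 146 and 70.8 to 91.2 CPM, and of 6 endothelial markers 2 fell, with overlapping sums of 559.8 to 707 and 535 to 627 CPM. Mural cell markers fell in 3 of 5 cases, with sums of 535 to 889.9 and 252 to 336 CPM.

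Of 5 Schwann cell markers 4 rose, with sums of 274 to 654 CPM in WT and 725 to 1697 CPM in SMA. All 5 tendon markers fell, with sums of 113 to 247 and 60.4 to 108 CPM. Of 5 adipocyte markers 3 fell, with sums of 18.6 to 167 and 4.92 to 14.7 CPM.

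Erythroid and lymphocyte lists were thin. Of 6 erythroid markers, 3 could be tested and all 3 fell, from sums of 643 to 1038 CPM to sums of 291 to 469 CPM. Of 6 lymphocyte markers, 4 were below the filter, and the 2 tested summed to at most 2.13 CPM in any library. The part of changes in cell type makeup in the fall of the replication genes was not tested.

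Replicates within a group varied by a median coefficient of variation of 12.8% in WT and 11.9% in SMA over the 35 genes. WT 5 was the lowest WT library for 29 of the 35 and SMA 3 the lowest SMA library for 20. WT 5 was also high in adipocyte markers, with a sum of 167 CPM against 18.6 to 62.2 CPM in the other WT libraries. Without WT 5, 29 genes were lower and 3 higher, and without both WT 5 and SMA 3, 28 were lower and 3 higher. With total-count scaling, which moved the median of all genes by 0.23, 25 of the 35 were lower and 3 higher, beside 13.6% and 40.2% of all genes. With the term for sex, 27 were lower and 1, Pole, was higher.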

How the data were processed

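The 9 libraries were stranded, polyadenylated RNA libraries of hindlimb muscle read as pairs, per the labels' protocols. HTSeq 0.9.1, DESeq2 1.16.1 and build mm10 are named per the submitters' processing notes, with no role stated; no aligner, annotation or strand setting was given in the sources used here. Deposited values are whole-number counts for 32594 genes, not normalized. A further table from the authors gives the same data as a signal (counts over a library size factor), and served only to check the counts.

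Counts were fitted with edgeR 4.0.16 in R 4.3.3 (filterByExpr, TMM scaling, quasi-likelihood test with group as the term, Benjamini-Hochberg adjustment over 15873 genes, threshold 0.05). SE is the log2 fold change divided by the root of the F statistic. Alternatives were other scalings and filters, DESeq2 1.42.0, limma 3.58.1 (voom), a sex term, a replicate block and leaving out libraries. The procedure was tested on simulated data. Replicates of a group all differed by more than sampling noise.

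The 35 genes and all lists were chosen with earlier results of these data known. All 35 are named whatever their values, as are the partner subunits; in the other replication, cell cycle and mitotic lists, the 2 genes with the lowest adjusted p in each direction are named, and E2f1 and Cdkn1a whatever their values. E2f3 to E2f8, Rb1, Rbl2 and the inhibitor genes other than Cdkn1a were named after their values were seen. So were the cell type markers that are given singly, among them Sdc4, Pax7, Myf5 and Calcr. Ratios, promoter letters, neighbours and overlapping genes were chosen after values were seen. Positions and transcript lengths are from GENCODE M21, promoters from RefSeq, and copies from blastn 2.17.0 (at least 95% identity over 200 bases).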

Additional observations from a re-analysis of the deposited data

Results flagged for a closer look

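Each replication gene was checked in each group for 1 library far from the others, 70 groups in all. Chance would flag about 5% of independent groups, and 7 stood out. The groups share the same libraries and are not independent, so the number cannot be read against that rate. WT 5 was low for Mcm7, at 13.8 CPM against 20.7 to 21.3 CPM in the other WT libraries, and low for Lig1, at 8.61 CPM against 14.0 to 14.4 CPM. SMA 2 was low for Mcm7, at 20.0 CPM against 22.0 to 22.3 CPM, and high for Rrm2, at 4.29 CPM against 3.89 to 3.95 CPM. SMA 3 was low for Orc1, at 0.503 CPM against 0.646 to 0.666 CPM, low for Lig1, at 5.09 CPM against 5.64 to 5.73 CPM, and high for Tk1, at 4.75 CPM against 3.82 to 3.92 CPM.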

How the results depend on the processing

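Over the alternative fits, the number of the 35 genes lower in SMA lay between 25 and 29, and it was 29 in each fit that left out 1 library. The number higher was 2 to 3 in those fits and 1 with the term for sex. With the replicate number as a block, 29 were lower and 2 higher, the call lost being Gins1 (adjusted p = 0.0777). The numbers were not taken to pair the libraries: correlations of same-numbered deviations were 0.12, -0.0055, -0.048 and 0.097, and 1 of 4 WT and 0 of 4 SMA libraries correlated best with their own number. Under total-count scaling 2164 of all genes were lower and 6385 higher. Of the 71 other replication genes, 5 to 12 were higher when 1 library was left out (5 without SMA 1), 18 were higher under total-count scaling and 5 with the term for sex. Total-count scaling turned the sign of Chaf1a (0.19), Orc3 (0.044), Gins4 (0.053), Pold3 (0.18), Rfc1 (0.19) and Vps35 (0.23), each of which had not passed; of these, only Vps35 passed there (adjusted p = 0.0490). Vps35 was also positive with the block (0.071), with the term for sex (0.015) and without WT 5 and SMA 3 (0.17), and lay between -0.066 and 0.077 when 1 library was left out. Pold2 was 0.24 under total-count scaling, where it passed (adjusted p = 0.0268), -0.0030 without a filter, -0.00032 with the block and -0.016 to 0.062 when 1 library was left out. With 1 library left out, Chaf1a lay between -0.10 and 0.013 and Abhd12 between -0.0058 and 0.050. Abhd12 (0.25) and Prpf38a (0.37) passed under total-count scaling. The log2 ratio differences of Cdt1 to Gmnn (-0.12 to 0.40), Rfc4 to Rfc5 (-0.15 to 0.021) and Pola1 to Prim1 (-0.021 to 0.066) changed sign in the same way. The cause of these changes was not tested. Low counts limit the precision for Cdc6, Orc1, Gins2 and Gins3, whose SEs were 0.25 to 0.27.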
